A study of Mus musculus with 2 samples.

Results

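The endothelial cells of stem-cell-derived parathyroid glands were divided by their Gfp RNA, and the cells with Gfp were compared with those without it. The cells were chosen by measured values of the same libraries, namely the endothelial genes and Gfp. A barcode counted as endothelial when at least 3 of Cdh5, Pecam1, Egfl7, Plvap, Emcn and Flt1 had a UMI (1 captured RNA molecule), with at most 1 Ptprc UMI and under 0.2% of UMIs from the collagen genes Col1a1, Col1a2 and Col3a1 and from Dcn together. It also needed at least 500 detected genes, under 15% mitochondrial UMIs and under 1% Pth UMIs, the latter to leave out parathyroid cells. This gave 395 endothelial cells of 4924 barcodes, and of the 1631 that passed the quality and Pth limits. Cells with at least 400 Gfp UMIs per 1000000 UMIs of the cell (CPM) were taken as Gfp-positive (223 cells) and those under 200 as Gfp-negative (134 cells), and the 38 cells between these limits were in neither group.

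The glands came from adult Gcm2-/- hosts on a BDF1B6 background, which lack a transcription factor that parathyroid development needs, after complementation with Pth-tdTomato mouse ESCs. In such animals descendants of the injected stem cells and of the host embryo can both contribute to a tissue. Replicate 1 pooled 3 mice of 9 to 12 weeks with a blood chimerism of 50 to 70%, replicate 2 pooled 5 mice of 6 to 13 weeks with 60 to 70%, and each pool contained males and females. All cells of both sides therefore come from Gcm2-/- hosts carrying the same stem cells, and no gland of an unmanipulated mouse is in the series. The labels do not state what Gfp marks, so that the sides are named by Gfp RNA and not by origin.

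Endothelial cells line blood and lymphatic vessels. In endocrine glands the capillaries are fenestrated: their wall has pores, closed by diaphragms made of the protein that Plvap encodes, through which hormones reach the blood. Lymphatic endothelium drains tissue fluid and is specified from venous endothelium by the transcription factor Prox1. Tissues of a chimera can contain vessels whose wall mixes cells of both embryonic sources. The glands were dissociated here, so that whether cells of both sides lay in the same vessels was not tested.

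The Gfp-positive cells made up 54.5% of endothelial cells in replicate 1 (61 of 112, exact 95% binomial interval 44.8 to 63.9) and 57.2% in replicate 2 (162 of 283, 51.3 to 63.1), or 55.9% ± 1.97 (SD, n = 2). Over the same limits 34.2% and 39.6% of fibroblasts and 60.3% and 51.1% of macrophages were Gfp-positive. Both libraries thus held the sides in similar proportion. The median Gfp level was 1504 and 2381 CPM in Gfp-positive cells. Among Gfp-negative cells, 21 of 38 and 62 of 96 had no Gfp UMI, and the others had 1 or 2. The values nearest to the upper limit were 399.872 and 411.396 CPM, and those nearest to the lower limit were 187.196 and 205.973. A cell just above the upper limit can hold as little as 1 Gfp UMI. These values describe the choice of the sides and carry no test.

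**Figure D1:**
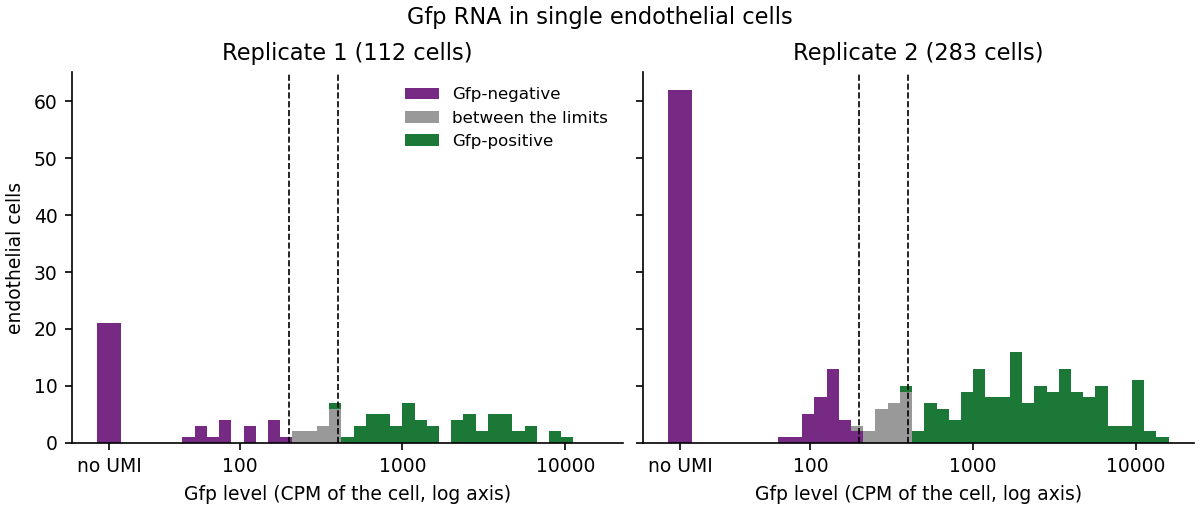
Number of endothelial cells by Gfp level in CPM of the cell, on a log axis with cells without a Gfp UMI as a separate bar, in replicate 1 (112 cells) and replicate 2 (283 cells). Dashed lines mark the limits of 200 and 400 CPM; green cells are Gfp-positive, purple cells Gfp-negative and grey cells lie between. In each library the Gfp-positive cells spread over more than a factor of 10, and the largest Gfp-negative bar is that of cells with no Gfp UMI.

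Depth was alike on both sides. The Gfp-positive cells had a median of 9455 and 7705.5 UMIs per cell in replicates 1 and 2 and the Gfp-negative cells 10506.5 and 7587. The UMIs of each side and library were summed, giving 4 sums of 643112 and 1330732 UMIs (Gfp-positive) and 388296 and 742725 UMIs (Gfp-negative). Levels below are UMIs per 1000000 UMIs of a sum (also CPM), always in the order replicate 1, replicate 2. The genes of the endothelial rule were close on both sides: Cdh5, the endothelial cadherin, had 676 and 589 CPM in Gfp-positive against 657 and 590 CPM in Gfp-negative cells, and Plvap had 2166 and 2578 against 2604 and 2689. The tdTomato entry was at 85.5 and 133 against 111 and 129 CPM, and Pth, the parathyroid hormone gene, at 1774 and 1931 against 1764 and 1997. Parathyroid markers summed to between 931 and 1042 CPM in all 4 sums, nearly all of it Chga. The leukocyte markers summed to 21.8 and 27.8 against 36.1 and 45.8 CPM. Pericyte and smooth muscle markers, all 11 detected, summed to 73.1 and 633 against 33.5 and 575 CPM, and so differed far more between libraries than between sides. The fibroblast markers Mfap5 and Pi16 were at 0, and the list summed to 24.9 and 79.7 against 23.2 and 70.0 CPM. The libraries shared 3 barcodes, 0 of them endothelial.

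Xist, the RNA that coats the inactive X chromosome of female cells, was examined first, since it was not used to form the sides. Xist reached 4.66 and 11.3 CPM in Gfp-positive cells and 288 and 300.2 CPM in Gfp-negative cells. Both Gfp-negative sums were far above both Gfp-positive sums. In the fit over all chromosomes its log2 fold change (Gfp-positive minus Gfp-negative) was -5.07 (SE 0.28, adjusted p = 3.77e-08, edgeR quasi-likelihood test). Tsix, the antisense partner of Xist, was at 1.55 and 0 against 36.1 and 17.5 CPM (-5.20, SE 0.87, adjusted p = 0.00950, edgeR). The sources used here do not state strand-specific counting, so reads of this overlapping pair cannot be told apart. The Y-linked RNA helicase gene Ddx3y had 0 and 3.01 CPM in Gfp-positive against 2.58 and 33.7 CPM in Gfp-negative cells, and Eif2s3y 0 and 1.50 against 5.15 and 10.8 CPM. Y-linked RNA was therefore low on the Gfp-positive side too.

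Most Gfp-positive endothelial cells had neither Xist nor Y-linked RNA. A cell was scored for a UMI of Xist and of Ddx3y, Eif2s3y, Kdm5d or Uty. Neither was found in 60 of 61 Gfp-positive cells of replicate 1 (98.4%, exact 95% interval 91.2 to 99.96) and in 155 of 162 of replicate 2 (95.7%, 91.3 to 98.2). Among Gfp-negative cells it was 11 of 38 (28.9%, 15.4 to 45.9) and 28 of 96 (29.2%, 20.3 to 39.3). The intervals of the sides did not overlap in either library; they cover counting error only. Of Gfp-negative cells, 26 and 54 had Xist alone and 1 and 14 had Y-linked RNA alone. With each cell thinned to 5000 UMIs, which left out between 2 and 15 shallower cells per side and library, the shares with neither were 100% and 95.9% against 35.3% and 31.9%. Cells between the Gfp limits had intermediate counts, with neither RNA in 8 of 13 and 18 of 25.

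**Figure D2:**
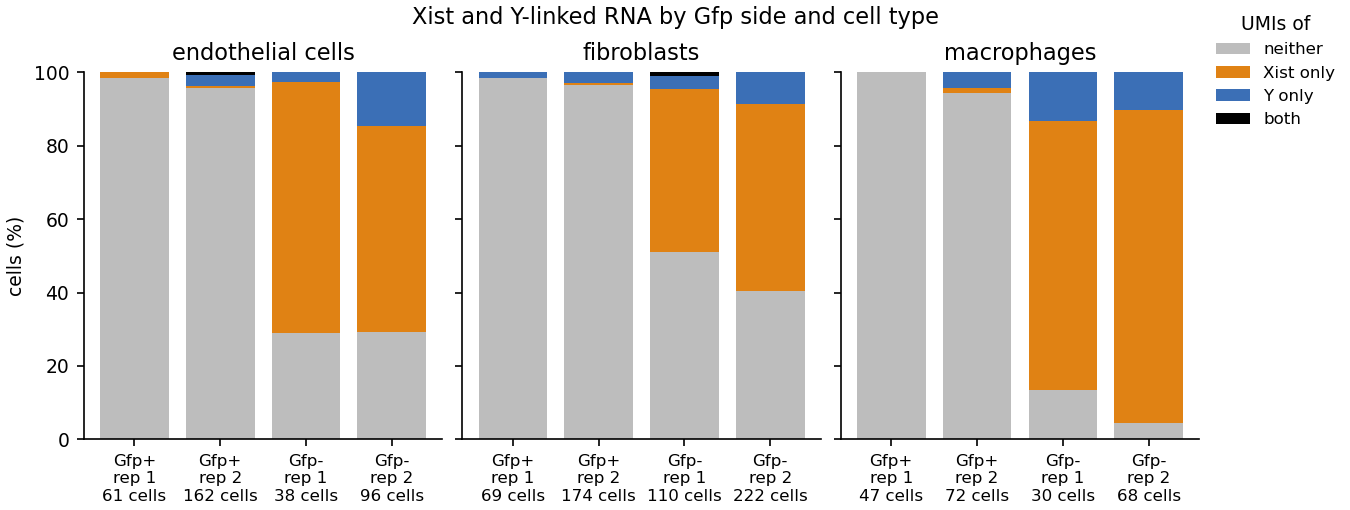
Share of cells (%) with a UMI of Xist only, of a Y-linked gene only, of both or of neither, for Gfp-positive (Gfp+) and Gfp-negative (Gfp-) endothelial cells, fibroblasts and macrophages of replicates 1 and 2, with the number of cells under each bar. Neither RNA was found in 95.7% or more of Gfp-positive and 29.2% or less of Gfp-negative endothelial cells.

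In fibroblasts and macrophages the shares also differed between the sides, and the size of this difference was not compared between cell types. Neither RNA was found in 98.6% and 96.6% of Gfp-positive fibroblasts against 50.9% and 40.5% of Gfp-negative ones. In macrophages the shares were 100% and 94.4% against 13.3% and 4.41%. A further set of barcodes, those with at least 5% Pth UMIs, had neither RNA in 95.2% and 93.6% of its Gfp-positive members and in 2 of 2 (100%) and 100 of 108 (92.6%) of its Gfp-negative ones. The exact intervals of replicate 2 overlapped (92.5 to 94.6 and 85.9 to 96.7) and cover counting error only. With 2 Gfp-negative cells in replicate 1, whether the sides of this set differ cannot be told. Its Gfp-positive cells without either RNA had medians of 37580 and 30448.5 UMIs. Among Gfp-negative endothelial cells, those with neither RNA had medians of 5865 and 7535 UMIs and those with Xist only 11732.5 and 7496. For endothelial cells the shares at an equal depth of 5000 UMIs per cell are given above, and the sides differed there too. In the other cell sets the part of depth was not tested. Ddx3x, an X-linked gene known to escape inactivation, did not pass the test, at 241 and 238 against 435 and 310 CPM (log2 fold change -0.65, SE 0.16, adjusted p = 0.164, edgeR). Of 242 X-linked genes tested, 0 were higher and 2, Xist and Tsix, were lower (edgeR; DESeq2 was not run over the sex chromosomes), with a median log2 fold change of -0.0008. The single row tested that is annotated on chromosome Y, Gm47283, was instead higher at 107 and 91.7 against 25.8 and 41.7 CPM (1.41, SE 0.28, adjusted p = 0.0364, edgeR). Ddx3y, Eif2s3y, Kdm5d and Uty were each at 0 CPM in the Gfp-positive sum of replicate 1, where Gm47283 had 107. Gm47283 was therefore not read as Y-linked RNA of male cells.

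The autosomal comparison asked which genes differ between the sides. Of 7490 autosomal genes tested with edgeR's quasi-likelihood test and the library as a block, 37 were called at an adjusted p of 0.05 (0.494% of those tested). They comprised 22 genes higher (0.294%) and 15 lower (0.2%) in Gfp-positive cells. The median log2 fold change over all genes was 0.006, and medians of single autosomes lay between -0.02 and 0.04. Both Gfp-positive sums were above both Gfp-negative sums in 18.1% of genes and below them in 9.89%. The called genes fell into a lymphatic group, a haemoglobin group and a remainder led by Slc15a2, Stab2 and Tpm3-rs7. DESeq2 called 4 higher and 3 lower, edgeR without the library block 8 and 4, and edgeR without 3 cells of high doublet score 8 and 2. The test rests on 2 pools with 1 residual degree of freedom, and fewer cells of a kind cannot be told apart from less RNA per cell in such sums.

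**Figure D3:**
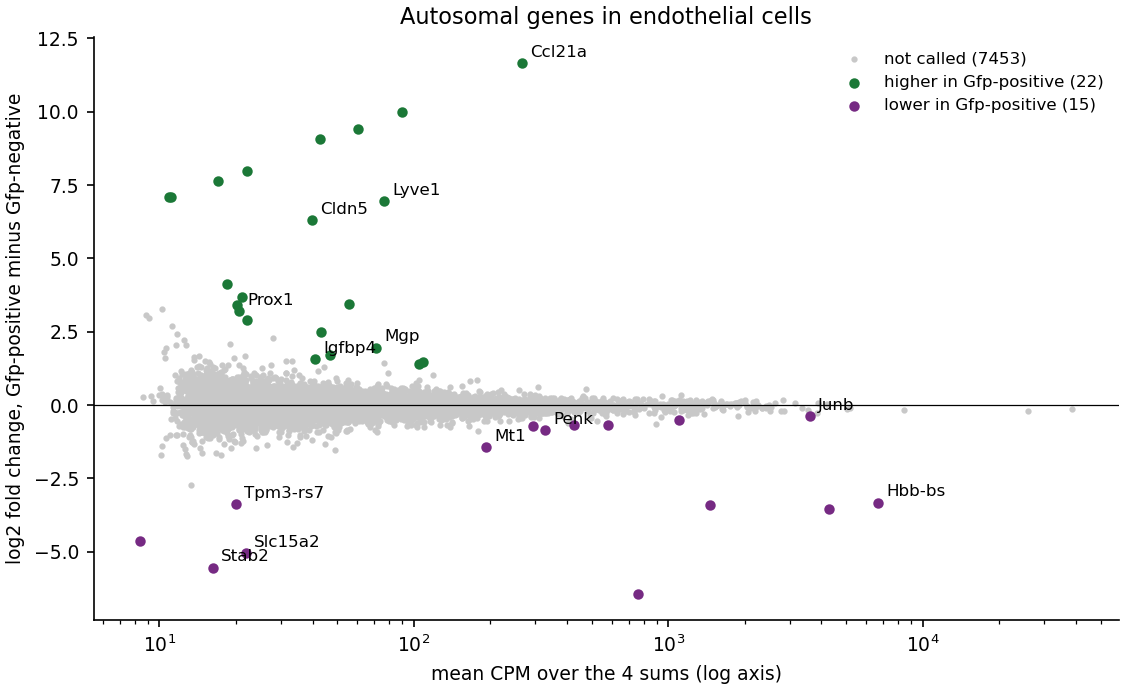
Log2 fold change (Gfp-positive minus Gfp-negative) of the 7490 autosomal genes tested in endothelial cells against their mean CPM over the 4 sums (log axis), with the 22 genes called higher in green and the 15 called lower in purple. Most genes lie near 0, and the lymphatic gene Ccl21a has the highest value, 11.65.

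Lymphatic genes were higher in Gfp-positive cells. Ccl21a (ENSMUSG00000094686, chromosome 4), a chemokine with which lymphatic vessels attract dendritic cells and T cells, had 555 and 508 CPM in Gfp-positive cells and no UMI in either Gfp-negative sum. Taking a floor of 3 counts over the Gfp-negative side, it was at least 197-fold higher (adjusted p = 5.77e-12, edgeR). Several gene copies share its symbol and near-identical sequence, so the copy is uncertain. Mmrn1, a secreted multimerin of lymphatic vessels, had 221 and 138 against 0 and 0 CPM, at least 62.1-fold higher (adjusted p = 1.39e-08). Reln, an extracellular matrix glycoprotein, had 80.9 and 90.2 against 0 and 0 CPM, at least 32.9-fold higher (adjusted p = 8.91e-07). For none of these did the sides overlap.

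Lyve1, a hyaluronan receptor, had 207 and 95.4 CPM against 2.58 and 0. The ratio of the pooled counts was 149, with an exact 95% interval of 26.5 to 5907, since the Gfp-negative side held 1 UMI (adjusted p = 5.73e-08, edgeR). Prox1, the transcription factor that specifies the lymphatic fate, had 43.5 and 30.8 against 5.15 and 2.69 CPM, a log2 fold change of 3.20 (SE 0.57, adjusted p = 0.00545). Of the 8 genes in the lymphatic list 7 were tested, 5 were higher and 0 lower. Their median log2 fold change was 6.95, or 5.04 with the genes absent from the Gfp-negative side at their bound, against 0.006 over all genes. Uncalled were Flt4, the receptor for the lymphatic growth factor Vegfc, at 151 and 148 against 72.1 and 117 CPM (adjusted p = 0.673), and Thy1 (adjusted p = 0.968). Both Gfp-positive sums of all 7 were above both Gfp-negative sums, where 18.1% of genes were. Ccl21a, Mmrn1 and Reln had no Gfp-negative UMI and Lyve1 had 1, so they could pass the filter on low counts only through the Gfp-positive side. Their direction was thereby fixed. The list median and this count are thus a description and no independent support. DESeq2 called Lyve1 (adjusted p = 0.00309) and Reln (0.00169) but not Ccl21a, Mmrn1 and Prox1 (0.999986 for each).

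Most Gfp-positive UMIs of the called lymphatic genes came from 8 cells. A UMI of at least 2 of Prox1, Lyve1, Mmrn1, Ccl21a and Reln was found in 3 of 61 Gfp-positive cells of replicate 1 (4.92%, exact 95% interval 1.03 to 13.7) and 5 of 162 of replicate 2 (3.09%, 1.01 to 7.06). None was among the 38 and 96 Gfp-negative cells, which allows shares of up to 7.89% and 3.13% by the limit of 3 counts and up to 9.25% and 3.77% by the exact 95% interval, so that the absence of such cells there was not detectable at this depth. The 8 cells had Gfp levels of 523 to 2166 CPM, and all 8 had neither Xist nor Y-linked RNA. They held 99.9% of the Ccl21a, 100% of the Mmrn1, 99.6% of the Lyve1, 99.4% of the Reln and 85.5% of the Prox1 UMIs of the Gfp-positive side. The cells were chosen by UMIs of these same genes, so that the shares are partly set by the choice. Of the uncalled Flt4, which did not enter the choice, they held 23.5%. With these cells left out, 0 genes were called higher and 6 lower (edgeR; 313 genes were at an unadjusted p under 0.05, against 401 with them). A lost call was not always a smaller difference. Mgp, described below, was then at a log2 fold change of 2.01 (SE 0.31, adjusted p = 0.0716, edgeR) against 1.95 in the main fit. Also leaving out any cell with a UMI of the 5 lymphatic genes or at least 1% haemoglobin gave 5 higher and 6 lower. The 5 higher genes were Cldn5, Mgp, Nebl, S100a4 and Gm11290.

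Other called genes lay in the same 8 cells. Igfbp5, a secreted insulin-like growth factor binding protein that the capillary list also names, had 152 and 89.4 against 0 and 0 CPM (at least 41.4-fold, adjusted p = 1.96e-07, edgeR), with 94.9% of its Gfp-positive UMIs in the lymphatic cells. Fgl2, a fibrinogen-like protein, had 99.5 and 104 against 10.3 and 8.08 CPM (log2 fold change 3.46, SE 0.36, adjusted p = 5.50e-06), with 99.0% in them. The lipocalin gene Lcn2, the Na,K-ATPase regulator gene Fxyd6 and the polarity gene Pard6g had 95.3%, 97.5% and 90.4% there. Of these 5 genes DESeq2 called Fgl2 alone (adjusted p = 0.00383), with 0.999986 for Igfbp5. Igfbp5, Lcn2 and Fxyd6 had no Gfp-negative UMI, so they could pass the filter on low counts only through the Gfp-positive side. Their direction was thereby fixed, and their values are no independent support for it. For Timp2, an inhibitor of metalloproteinases, and Ifi27l2a the shares were 65.7% and 66.3%.

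Cldn5, a claudin of endothelial tight junctions, was partly outside them. It had 62.2 and 95.4 CPM in Gfp-positive cells against 0 and 1.35. The pooled ratio was 95.7 with an exact interval of 16.9 to 3802 (adjusted p = 1.13e-06, edgeR). With 1 Gfp-negative UMI, its direction was fixed by the filter on low counts. Cldn5 was found in 15 of 223 Gfp-positive and 1 of 134 Gfp-negative cells, and the lymphatic cells held 62.3% of its UMIs. Without them the log2 fold change was 4.94 (adjusted p = 0.0716), and also leaving out every cell with a UMI of any of the 5 genes and cells of at least 1% haemoglobin it was 4.96 (adjusted p = 0.00536). Mgp, matrix Gla protein, an inhibitor of calcification made by arterial endothelium and mural cells, had 107 and 116 against 41.2 and 20.2 CPM (1.95, SE 0.30, adjusted p = 0.00135), with 0 UMIs in lymphatic cells. Mgp came from 22 Gfp-positive and 13 Gfp-negative cells, 1 Gfp-positive cell holding 25.9% of it, and DESeq2 did not call it (adjusted p = 0.506). Without the cell of most UMIs in each sum its log2 ratio was -0.28 in replicate 1, where 1 Gfp-positive cell held 58 of 69 UMIs, and 2.79 in replicate 2, so that its direction in replicate 1 rests on that cell. Nebl, a nebulin-family actin-binding gene, rested on 4 Gfp-positive cells and S100a4, a calcium-binding gene, on 7, both with no UMI on the Gfp-negative side. Their direction was thereby fixed by the filter on low counts. In replicate 1, 1 cell held 15 of 15 Nebl UMIs and 1 cell 12 of 13 S100a4 UMIs. Without the cell of most UMIs in each sum their replicate 1 log2 ratios were -0.74 and 0.84.

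**Figure D4:**
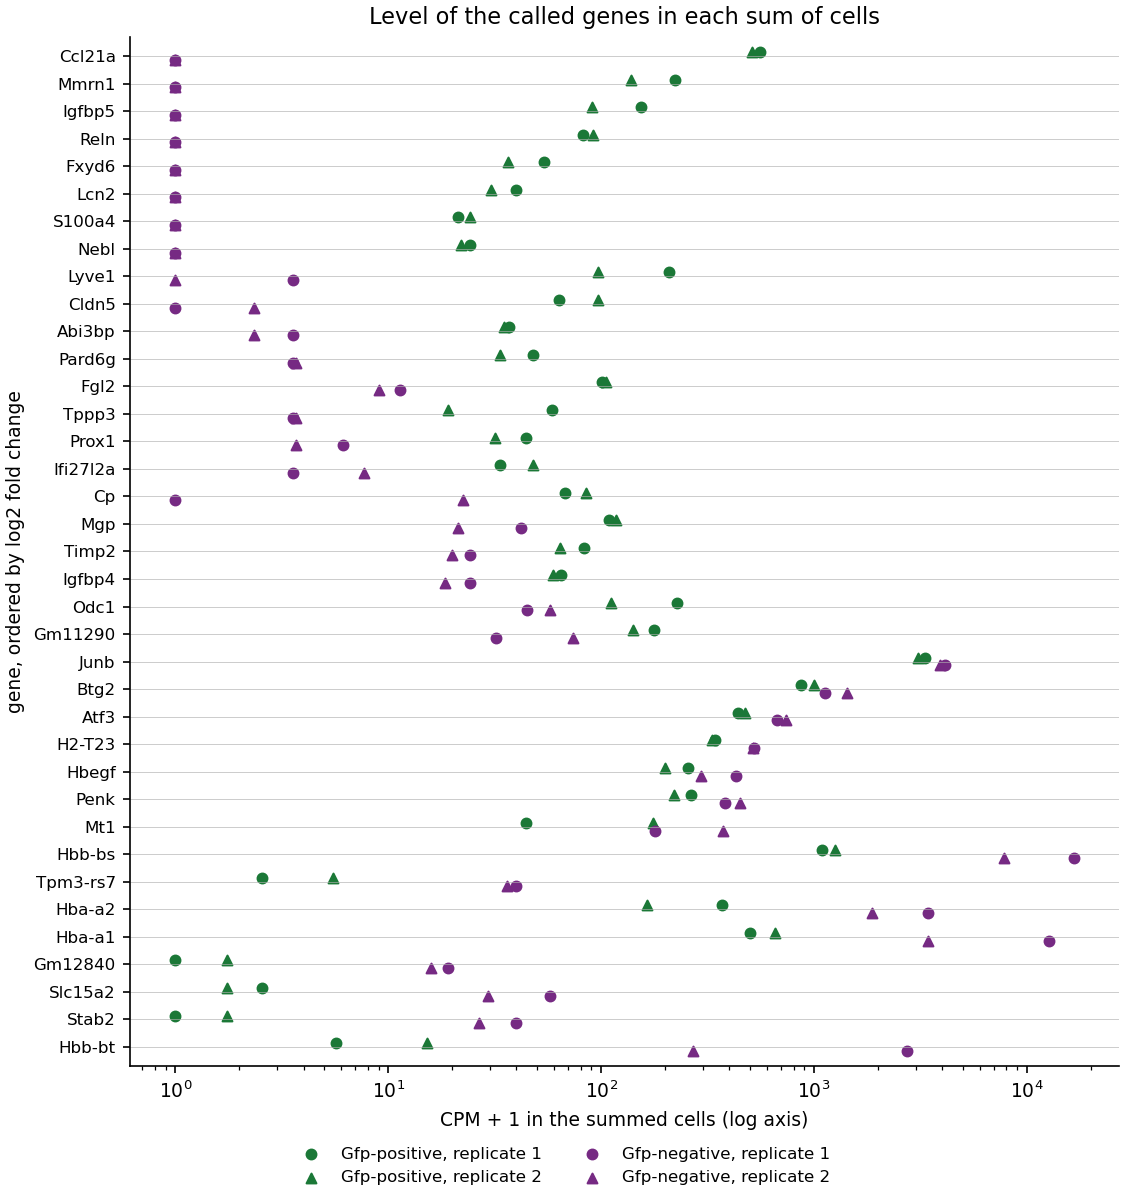
Level (CPM + 1, log axis) of the 37 called genes in each of the 4 sums of endothelial cells, ordered by log2 fold change; circles are replicate 1 and triangles replicate 2, green Gfp-positive and purple Gfp-negative. For each gene shown both green symbols lie on one side of both purple ones, and the uppermost 8 genes have no UMI on the Gfp-negative side. The genes were chosen by this contrast on these same sums, so that the separation is largely set by the choice. Over all genes tested 18.1% had both Gfp-positive sums above and 9.89% below both Gfp-negative sums.

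Haemoglobin genes led the lower group. Hbb-bs, a beta-globin gene, was at 1084 and 1259 CPM in Gfp-positive against 16578 and 7771 CPM in Gfp-negative cells (log2 fold change -3.32, SE 0.18, adjusted p = 1.69e-10, edgeR), and Hba-a1, Hba-a2 and Hbb-bt were also lower. All 4 called genes of the red cell and platelet list are haemoglobins, and paralogs of each locus share much sequence, so counts may be divided between them. Cells with at least 5% haemoglobin UMIs, of which there were 3 on the Gfp-negative and 2 on the Gfp-positive side, held over 99% of the Gfp-negative haemoglobin UMIs. Summed haemoglobin fell from 1956 and 2087 against 35365 and 13339 CPM to 12.7 and 19.7 against 8.05 and 132 CPM without them. The sides then overlapped, and the call rule gave 19 higher and 8 lower genes. The doublet limit left 94 Gfp-negative cells with 718931 UMIs in replicate 2, as the haemoglobin limit did, and with it Hbb-bs was at -0.32 (adjusted p = 0.999, edgeR). Against Gfp-negative cells with Xist alone, an alternative chosen after seeing the data, the direction turned, to 4.70 for Hba-a1, 4.86 for Hba-a2 and 4.02 for Hbb-bs. The haemoglobin difference thus rests on these few cells.

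Slc15a2 (ENSMUSG00000022899, chromosome 16, 36750177 to 36784962, minus strand, GRCm38), a proton-coupled transporter of small peptides, was called lower in endothelial cells, fibroblasts and macrophages. In endothelial cells it had 1.56 and 0.751 CPM on the Gfp-positive and 56.7 and 28.3 CPM on the Gfp-negative side. The pooled level was 37.5-fold higher in Gfp-negative cells, with an exact interval of 9.78 to 319.7, since the Gfp-positive side held 2 UMIs. The adjusted p was 0.000143 (edgeR), and the sides did not overlap. With 2 Gfp-positive UMIs Slc15a2 could pass the filter on low counts only through the Gfp-negative side. Its direction was thereby fixed, so that the lack of overlap is no independent support. A UMI was found in 2 of 223 Gfp-positive and 21 of 134 Gfp-negative cells, and 16.3% of the Gfp-negative UMIs lay in the cell with most. The call remained without the block (adjusted p = 0.0413), without lymphatic cells (0.0178) and without cells of high doublet score (0.0162), and DESeq2 gave an adjusted p of 0.0898.

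The same gene was then read in fibroblasts and macrophages, whose values the sides of the endothelial cells did not enter. In fibroblasts Slc15a2 had no UMI on the Gfp-positive side and 16.5 and 29.1 CPM on the Gfp-negative side (adjusted p = 0.000375, edgeR), where 3 of 11127 genes were lower (0.027%) and 1 was higher (0.00899%). Without a Gfp-positive UMI, the direction of Slc15a2 was fixed by the filter on low counts in fibroblasts too. In macrophages it had 3.90 and 20.6 against 61.1 and 142 CPM (log2 fold change -3.08, SE 0.33, adjusted p = 0.00109), where 7 of 7491 genes were lower (0.0934%) and 9 higher (0.12%). The effect did not pass the test of a difference between endothelial cells and fibroblasts (adjusted p = 0.970) or macrophages (adjusted p = 0.782). Without the library block edgeR called 0 genes in either cell type, with 110 and 140 genes at an unadjusted p under 0.05, and DESeq2 called 0 in fibroblasts and 4 lower genes in macrophages.

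Tpm3-rs7 (chromosome 14, 113314608 to 113316754, plus strand), annotated as a tropomyosin 3-related sequence, had 1.56 and 4.51 CPM in Gfp-positive against 38.6 and 35.0 CPM in Gfp-negative endothelial cells. The log2 fold change was -3.38 (SE 0.55, adjusted p = 0.00220, edgeR). The sides did not overlap; the call was lost without the block (adjusted p = 0.0718), without lymphatic cells (0.0716), with the doublet limit (0.0659) and with DESeq2 (0.513). The size moved little: the log2 fold change was -3.32 without lymphatic cells, which held 0 Tpm3-rs7 UMIs. Because this row is a near copy of a tropomyosin gene, reads could be divided between them. In Gfp-negative endothelial cells and fibroblasts Tpm3-rs7 was found mostly in cells with Xist only and in 0 with Y-linked RNA only. Replicate 1 held 1 Gfp-negative endothelial cell with Y-linked RNA only. Among Gfp-negative endothelial cells a Tpm3-rs7 UMI was found in 26 of 80 with Xist only, 0 of 15 with Y-linked RNA only and 2 of 39 with neither. In Gfp-negative fibroblasts the counts were 61 of 162, 0 of 23 and 3 of 146. The 61 fibroblasts were unevenly spread, with 4 of 49 in replicate 1 and 57 of 113 in replicate 2, while the endothelial share was 8 of 26 and 18 of 54.

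Slc15a2 was distributed otherwise. It was found in 16 of 80 Gfp-negative endothelial cells with Xist only, in 2 of 15 with Y-linked RNA only and in 3 of 39 with neither. Gfp-negative fibroblasts gave 60 of 162, 6 of 23 and 1 of 146, and macrophages 40 of 80, 6 of 11 and 2 of 7. Slc15a2 was thus present in cells with Y-linked RNA, where Tpm3-rs7 had a UMI in 0 endothelial cells, 0 fibroblasts and 1 of 11 macrophages. Cells are not replicates, these splits were made after the genes had been called, and they were not tested.

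**Figure D5:**
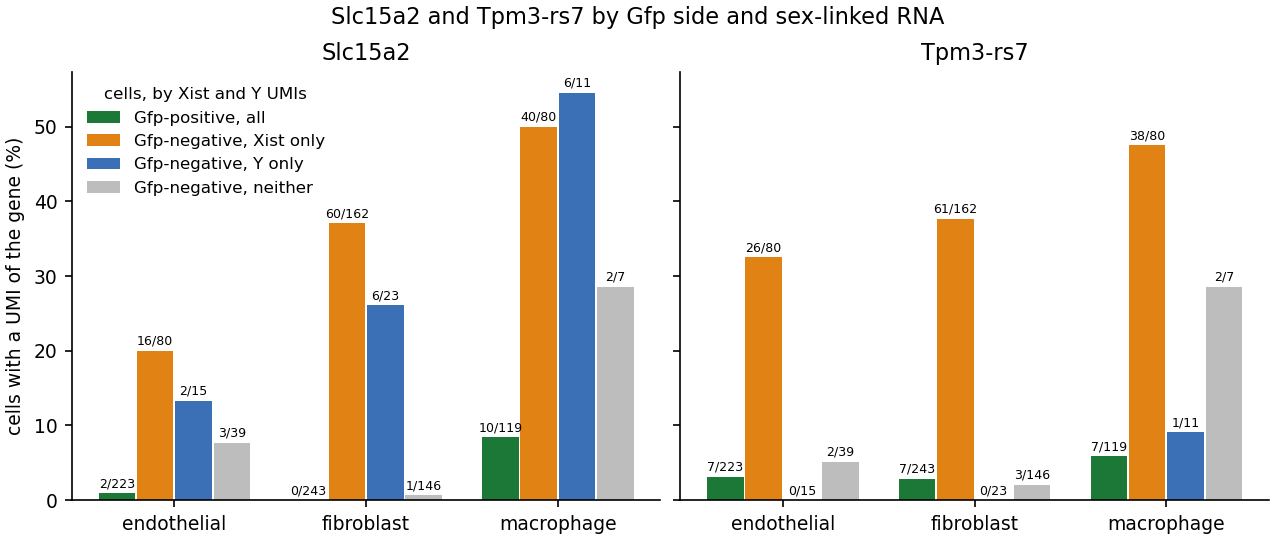
Share of cells (%) with a UMI of Slc15a2 (left) and Tpm3-rs7 (right) among all Gfp-positive cells and among Gfp-negative cells with Xist only, Y-linked RNA only or neither, for endothelial cells, fibroblasts and macrophages over both libraries; the number of cells with a UMI and the number of cells stand above each bar. Tpm3-rs7 was found in 26 of 80 Gfp-negative endothelial cells with Xist and in 0 of 15 with Y-linked RNA.

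Stab2 (chromosome 10, 86841198 to 87008025, minus strand), a scavenger receptor for hyaluronan that is abundant in sinusoidal endothelium, had 0 and 0.751 CPM in Gfp-positive against 38.6 and 25.6 CPM in Gfp-negative cells. The pooled level was 59.3-fold higher in Gfp-negative cells, with an exact interval of 9.95 to 2412, since 1 UMI was on the Gfp-positive side (adjusted p = 0.000643, edgeR). Stab2 could pass the filter on low counts only through the Gfp-negative side, and its direction was thereby fixed. The call was lost without the block (adjusted p = 0.0504) and with DESeq2 (0.260), at log2 fold changes of -5.63 and -5.99 against -5.55. Stab2 was seen in 16 of 134 Gfp-negative and 1 of 223 Gfp-positive cells. Of the Gfp-negative cells with Stab2, 14 had Xist only and 2 had neither RNA. In fibroblasts and macrophages Stab2 stayed at 4.07 CPM or less in all sums.

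The reference promoters are shown for Prox1, the regulator of lymphatic fate, and for Slc15a2 and Stab2, genes with at most 2 UMIs on the Gfp-positive side. Each is the C57BL/6J reference of RefSeq (GRCm38.p6), from 250 bases before to 50 after the start, and not the allele of either cell source. Capitals mark GGAAG on either strand (written CTTCC on the other), the core bound by ETS factors, which govern many endothelial genes.
Prox1, chr1:190170778-190171077, minus strand: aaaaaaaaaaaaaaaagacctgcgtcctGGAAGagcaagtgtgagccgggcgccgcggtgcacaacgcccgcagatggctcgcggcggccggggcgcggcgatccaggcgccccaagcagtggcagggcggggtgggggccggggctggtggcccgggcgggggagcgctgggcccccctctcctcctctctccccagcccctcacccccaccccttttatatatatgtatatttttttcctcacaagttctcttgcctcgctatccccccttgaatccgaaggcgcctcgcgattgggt
Slc15a2, chr16:36784913-36785212, minus strand: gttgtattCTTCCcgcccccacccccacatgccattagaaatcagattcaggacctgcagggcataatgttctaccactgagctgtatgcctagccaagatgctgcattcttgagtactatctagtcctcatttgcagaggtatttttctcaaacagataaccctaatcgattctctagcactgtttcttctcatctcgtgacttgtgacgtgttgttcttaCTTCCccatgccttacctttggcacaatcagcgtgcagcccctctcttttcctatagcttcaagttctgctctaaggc
Stab2, chr10:87007893-87008192, minus strand: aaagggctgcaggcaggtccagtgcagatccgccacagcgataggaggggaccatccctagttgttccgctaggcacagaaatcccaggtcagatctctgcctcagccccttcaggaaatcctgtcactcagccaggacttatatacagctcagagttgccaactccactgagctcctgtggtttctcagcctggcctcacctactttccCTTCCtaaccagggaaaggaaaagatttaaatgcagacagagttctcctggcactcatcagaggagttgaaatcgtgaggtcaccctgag
The motif occurred 1 time in the Prox1, 2 times in the Slc15a2 and 1 time in the Stab2 window. It was present in 71.4% of the 32851 promoters of this length, so that these matches are common. The Prox1 window held 25 CG dinucleotides, the Slc15a2 window 5 and the Stab2 window 4.

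Of the other lower genes, Gm12840 changed by -4.64 (adjusted p = 0.0272, edgeR) but rested on 18 UMIs in 6 Gfp-negative cells against 1 UMI, and was named after its values were seen. Its direction was also fixed by the filter on low counts. Mt1, Penk, H2-T23 and Hbegf changed by smaller amounts at higher levels. Mt1, a metal-binding metallothionein, had 43.5 and 174 CPM in Gfp-positive against 178 and 373 CPM in Gfp-negative cells (log2 fold change -1.43, SE 0.20, adjusted p = 0.000509, edgeR). The Gfp-positive sum of replicate 2 and the Gfp-negative sum of replicate 1 were nearly equal, and the value turned to 0.49 (adjusted p = 0.999) among cells with neither Xist nor Y-linked RNA. In replicate 1, 1 Gfp-negative cell held 51 of 69 Mt1 UMIs. Without the cell of most UMIs in each sum the Mt1 log2 ratio was -0.54 in replicate 1 and -1.16 in replicate 2. Penk, which encodes the enkephalin precursor, had 263 and 218 against 381 and 448 CPM (-0.87, SE 0.15, adjusted p = 0.00556), and among cells with neither RNA the value was -0.03 (adjusted p = 0.999). In fibroblasts Penk had 643 and 656 against 950 and 820 CPM without passing the test (-0.44, adjusted p = 0.0903). H2-T23, a nonclassical class I histocompatibility gene, had 341 and 329 against 520.2 and 517 CPM (-0.69, SE 0.13, adjusted p = 0.0101). Hbegf, a growth factor of the EGF family, had 254 and 198 against 430.1 and 292 CPM (-0.71, adjusted p = 0.0314). For these the sides did not overlap, and without the block or with the doublet limit 0 of Mt1, Penk, H2-T23 and Hbegf passed the edgeR test. Without cells of at least 5% haemoglobin Mt1 (adjusted p = 0.0151, edgeR), Penk (0.0400) and H2-T23 (0.0400) passed it, and Hbegf (0.107) did not. DESeq2 called Mt1 alone of the 4 (adjusted p = 0.0199).

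Immediate early genes, which respond quickly to stimuli and to tissue dissociation, gave 3 lower and 0 higher genes among 30 tested. Atf3 had 437 and 472 against 670 and 738 CPM (-0.68, SE 0.12, adjusted p = 0.00383, edgeR), Btg2 866 and 998 against 1120 and 1424 CPM (-0.50, SE 0.10, adjusted p = 0.0153), and Junb 3332 and 3061 against 4133 and 3896 CPM (-0.38, SE 0.07, adjusted p = 0.00838). Their median log2 fold change was -0.19 against 0.006 over all genes, and 24 of 30 values were negative. Both Gfp-positive sums lay below both Gfp-negative sums for 12 of the 30, where 9.89% of genes did. The uncalled member of highest level, Egr1, had 3598 and 3552 against 3925 and 4323 CPM (adjusted p = 0.206). The 3 calls were lost without lymphatic cells (adjusted p from 0.128 to 0.348), without the block, with the doublet limit and with DESeq2. The sizes moved little without lymphatic cells, to -0.63 for Atf3, -0.45 for Btg2 and -0.33 for Junb, and these cells held under 0.5% of the Gfp-positive UMIs of each. Mitochondrial UMIs had medians of 1.81% and 1.73% per Gfp-positive against 1.49% and 1.52% per Gfp-negative cell; their part in the result was not tested.

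Few genes of the other vessel lists passed the test, which with 2 pools does not show that the rest are equal. Of 14 capillary genes tested, 1 (Igfbp5, above) was called, at a list median of -0.05. Rgcc, a cell cycle regulator prominent in capillaries, had 2623 and 3943 against 2599 and 4287 CPM (-0.11, SE 0.07, adjusted p = 0.993, edgeR), and Kdr, the main Vegfa receptor, 1521 and 1803 against 1404 and 1861 CPM (-0.02, SE 0.09). The sides overlapped for both. Gpihbp1, which holds lipoprotein lipase at the capillary wall, had 644 and 913 against 487 and 975 CPM. Among 13 arterial genes Mgp alone was called, at a list median of 0.10. Of 22 genes of VEGF, angiopoietin, apelin and BMP9 signalling Cldn5 alone was called, and the highest uncalled member, the co-receptor gene Nrp1, had 1855 and 2249 against 1689 and 2331 CPM (-0.02, SE 0.09).

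No gene was called among 14 Notch genes, 19 endothelial transcription factors or 13 venous and leukocyte adhesion genes (edgeR; the smallest adjusted p values were 0.968, 0.773 and 0.0762). The list medians were 0.005, -0.02 and 0.07. Hes1, a Notch target, had 572 and 300 against 435 and 292 CPM, and Klf2, a flow-responsive transcription factor, 1166 and 1385 against 1257 and 1233 CPM. Some venous genes differed more between the libraries than between the sides. Selp, the adhesion receptor P-selectin, had 244 and 33.8 CPM in Gfp-positive and 389 and 0 CPM in Gfp-negative cells. Vcam1, an adhesion molecule for leukocytes, had 42.0 and 6.01 against 139 and 9.42 CPM (-1.54, SE 0.37, adjusted p = 0.0762). Both were higher in replicate 1 on either side. The venous gene of highest level, Ctla2a, was instead at 966 and 1240 against 1131 and 1252 CPM.

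Immune and imprinted genes gave few differences. Of 18 MHC class I and peptide loading genes, H2-T23 was lower and 0 were higher, with a median of -0.08. B2m, the light chain of class I molecules, had 2287 and 2436 against 2241 and 2693 CPM (-0.11, SE 0.08, adjusted p = 0.993, edgeR). None of 33 interferon-stimulated genes (median -0.08), 2 class II genes, 20 imprinted genes (median 0.05) or 7 cell cycle genes (median -0.25) was called, with smallest adjusted p values of 0.610, 0.993, 0.975 and 0.370. Gnas, an imprinted G protein gene, had 1816 and 2061 against 1594 and 1964 CPM, and Pcna, a replication clamp, 121 and 107 against 175 and 162 CPM (-0.61, SE 0.19, adjusted p = 0.370). Of autosomal genes with alleles known to differ between mouse strains, 3 were tested and 0 called: Apobec3, an antiviral deaminase gene, had 141 and 116 against 90.1 and 90.2 CPM (0.43, adjusted p = 0.9495).

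Differences between the cell types were tested directly for all genes. The Gfp effect in endothelial cells minus that in fibroblasts passed for 5 of 10933 genes (0.0457%), all in the positive direction: Igfbp5, Fgl2, Lyve1, Abi3bp and Fxyd6. Igfbp5 had 231 and 313 against 216 and 246 CPM in fibroblasts, and Lyve1 8.45 and 6.53 against 7.59 and 6.33 CPM, so that these genes were present there on both sides. Against macrophages 38 of 8982 genes passed (0.423%), 8 in the positive and 30 in the negative direction. Without the library block the counts were 2 and 0 genes (262 and 231 genes at an unadjusted p under 0.05).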

How the data were processed

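Both libraries were 3' droplet libraries of glands digested with papain, collagenase and trypsin and sorted against doublets, per the labels' protocols. The deposited counts are UMI counts per gene and barcode, made by the authors with Cell Ranger 7.0.0 on mm10, per the submitters' processing notes. For the choice of which barcodes were kept, no method is named in the sources used here. Cells, lists and the sides were chosen with earlier results of these data known.

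UMI counts were summed per library and side. Autosomes were taken from GENCODE; 50 of 32287 entries had no annotation, and Gfp and tdTomato were left out of the fit. edgeR 4.0.16 (filterByExpr, TMM, quasi-likelihood test, Benjamini-Hochberg over all autosomal genes tested) compared the sides, with the library as a block, since both sides share the mice and the droplet run of their library. DESeq2 1.42.0 was an alternative. The pools were separate mice. With 1 residual degree of freedom, the spread behind a p-value came mostly from all genes together (prior degrees of freedom 18.6). A p-value thus reflects little of a gene's own variation between these 2 pools, and a small one does not show that they agree. Differences between cell types were tested as an interaction. Fibroblasts had at least 1% of UMIs from the collagen genes and Dcn, and macrophages at least 3 of 7 macrophage genes and a Ptprc UMI.

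Named genes were up to 12 called genes of largest fold change per direction with the same sign in both libraries and at least 20 CPM on the higher side, without ribosomal, Gm-number and Rik genes. Each list added up to 3 called members and the uncalled member of highest CPM, and other genes were named after their values were seen. The fit was tested on simulated counts with known changes. Exact intervals and the floor of 3 counts cover counting error only. No doublet caller was applied to the main values, and Scrublet (scanpy 1.11.5) scores at a limit of 0.25 served as an alternative.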

Additional observations from a re-analysis of the deposited data

Results flagged for a closer look

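For 10 results the Gfp effect in endothelial cells differed from that in another cell type by the interaction test of edgeR. Against fibroblasts the log2 effects differed by 10.3 for Igfbp5 (SE 0.83, adjusted p = 0.000570), 6.99 for Lyve1 (SE 0.72, adjusted p = 0.00216), 4.21 for Abi3bp (SE 0.50, adjusted p = 0.00750) and 8.75 for Fxyd6 (SE 1.21, adjusted p = 0.0417). The 8 lymphatic cells held 94.9%, 99.6%, 94.1% and 97.5% of the Gfp-positive endothelial UMIs of these genes.

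Against macrophages the difference was 5.95 for Lyve1 (SE 1.17, adjusted p = 0.0271) and 7.05 for S100a4 (SE 1.08, adjusted p = 0.00548), which macrophages carried on both sides, at 438 and 302 against 429 and 303 CPM. It was -1.89 for Mt1 (SE 0.28, adjusted p = 0.00408) and -1.99 for Hes1 (SE 0.39, adjusted p = 0.0264). Hes1 had 71.5 and 42.8 CPM in Gfp-positive against 20.4 and 7.17 CPM in Gfp-negative macrophages. Among endothelial cells of replicate 1, 1 Gfp-positive cell held 12 of 13 S100a4 UMIs and 1 Gfp-negative cell held 51 of 69 Mt1 UMIs.

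The differences of -6.68 for Penk (SE 0.93, adjusted p = 0.00319) and -4.29 for Mgp (SE 0.86, adjusted p = 0.0303) rested on few macrophages of replicate 2. There 6 cells held 83 Penk UMIs, 51 of them in 1 cell, and 6 cells held 291 Mgp UMIs, 256 of them in 1 cell. Without that cell Mgp fell from 239.8 to 29.8 CPM and Penk from 68.4 to 27.0 CPM in this sum. In replicate 1, Gfp-positive macrophages had 0 Penk UMIs and 2 Mgp UMIs.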

How the results depend on the processing

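With the replicate block left out, 8 genes were higher and 4 lower, and in fibroblasts and macrophages 0 and 0. The differences between cell types then gave 2 genes against fibroblasts (0 negative) and 0 and 0 against macrophages. DESeq2 called 4 higher and 3 lower, in fibroblasts 0 and 0 and in macrophages 0 and 4. With no filter on low counts 46 were higher and 31 lower, and with Gfp limits of 800 and 100 CPM 9 and 9. The doublet limit gave 8 and 2, leaving out lymphatic cells 0 and 6, and leaving out cells of 5% haemoglobin 19 and 8. Of alternatives chosen after seeing the data, cells with neither Xist nor Y-linked UMIs gave 11 and 2. Of these, 9 and 0 were also called in the main fit. The 2 lower genes were Phtf2 and the interferon-stimulated gene Ifit1 (-1.05, adjusted p = 0.0486, edgeR), neither called in the main fit. Leaving out any cell with a lymphatic gene UMI or 1% haemoglobin gave 5 and 6. Gfp-negative cells with Xist alone gave 25 and 13. In them Hba-a1, Hba-a2 and Hbb-bs turned to 4.70, 4.86 and 4.02, and Mt1 turned to 0.49 in cells with neither RNA. The share of Gfp-positive cells was 46.6% with limits of 800 and 100 and 62.7% with 1 limit of 300 CPM; leaving out each replicate gave 54.5% and 57.2%. The causes were not tested. Sums of cells with Xist only or Y-linked RNA only on both sides could not be run, since under 10 Gfp-positive cells per library had either. Calls without 1 replicate could not be given, since no residual degree of freedom remains.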
